A study of Mus musculus with 8 samples.

Results

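The genes described here are 10 members of the insulin, insulin-like growth factor (IGF) and mTOR signalling pathway, *Igf1*, *Igf1r*, *Insr*, *Irs1*, *Irs2*, *Foxo3*, *Mtor*, *Rptor*, *Tsc1* and *Rheb*, measured in brain RNA of young-adult and aged male mice. They were taken by name, with results of these data already known, and Ensembl identifiers were matched to GENCODE symbols. All 10 were among the 22430 genes of the count table and among the 16730 genes with enough counts to be tested. The mice were C57Bl/6JRj males purchased from Janvier labs, untreated as far as the labels say, and the labels describe the tissue both as whole brain and as brain hemisphere. The 6m group held 4 males of 6 months and the 24m group 4 males of 24 months, each library coming from a different male. RNA was polyadenylated RNA from bulk tissue, so fewer cells of a type and less RNA per cell cannot be told apart in any value below.

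Insulin and IGF1 are secreted hormones that bind the related receptor tyrosine kinases INSR and IGF1R. The active receptors phosphorylate the docking proteins IRS1 and IRS2, which recruit PI3 kinase, and the lipid it makes activates the kinase AKT. AKT holds FOXO transcription factors out of the nucleus and inactivates the TSC complex, which otherwise keeps the small GTPase RHEB in its inactive form. RHEB bound to GTP activates mTORC1, the complex of the kinase mTOR with raptor (the product of *Rptor*), which promotes protein synthesis and restrains autophagy. In the brain the pathway is known for its part in growth, synaptic plasticity and energy balance, and in several species a weaker pathway goes with a longer life.

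Levels are given as CPM, counts per 1e+06 of a library's total after scaling by the trimmed mean of M values (TMM). A gene was called when the Benjamini-Hochberg adjusted p (padj) of edgeR's quasi-likelihood test over all genes tested was at most 0.05 and its log2 fold change (log2FC, 24m against 6m) was 0.58 or more in size. Library totals were 63460940 to 74513571 counts at 6m and 72936345 to 103462414 at 24m. Of all genes tested, 25.3% were called higher at 24m and 18.3% lower, 4237 and 3058 genes, and with library totals alone as scaling the counts were 5449 and 1746. The difference between ages was also graded by gene length, with a median log2FC of -0.67 in the tenth of genes with the shortest exonic length and 0.52 in the tenth with the longest. The 10 genes lie on the long side, with exonic lengths of 7364 to 19768 bases, at or above the 65th percentile of the genes tested. Values with this trend removed stand beside the results of the 10 genes and beside the counts of each gene list, once for the length of all exons of a gene merged (exonic length) and once for that of its canonical transcript (canonical length). One library, 24m replicate 1, stood apart: it held the most counts, and its sum over 7 B and plasma cell markers was 1154 CPM, where the other 7 libraries held 45.7 to 81.9 CPM.

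Of the 10 genes, 7 were called higher at 24m (*Insr*, *Irs1*, *Irs2*, *Foxo3*, *Mtor*, *Rptor* and *Tsc1*) and none was called lower. The share among all genes tested was 25.3% called higher and 18.3% called lower. By padj alone 8 of the 10 passed, *Rheb* joining from the side of lower levels, beside 62.6% of all genes tested. The libraries of the 2 ages did not overlap for these 8 genes, which was so for 55.2% of all genes tested. The median log2FC of the 10 genes was 1.07, with -0.003 over all genes tested. With the exonic length trend removed the median was 0.57 and 5 of the 10 were called higher and 2 lower, beside 21.4% and 17.2% of all genes tested in that fit. With the canonical length trend removed it was 0.37 with 3 higher and 1 lower, beside 18.1% and 14.4%. Without 24m replicate 1 the count stayed at 7 higher and 0 lower, beside 28.2% and 21.6%.

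**Figure D1:**
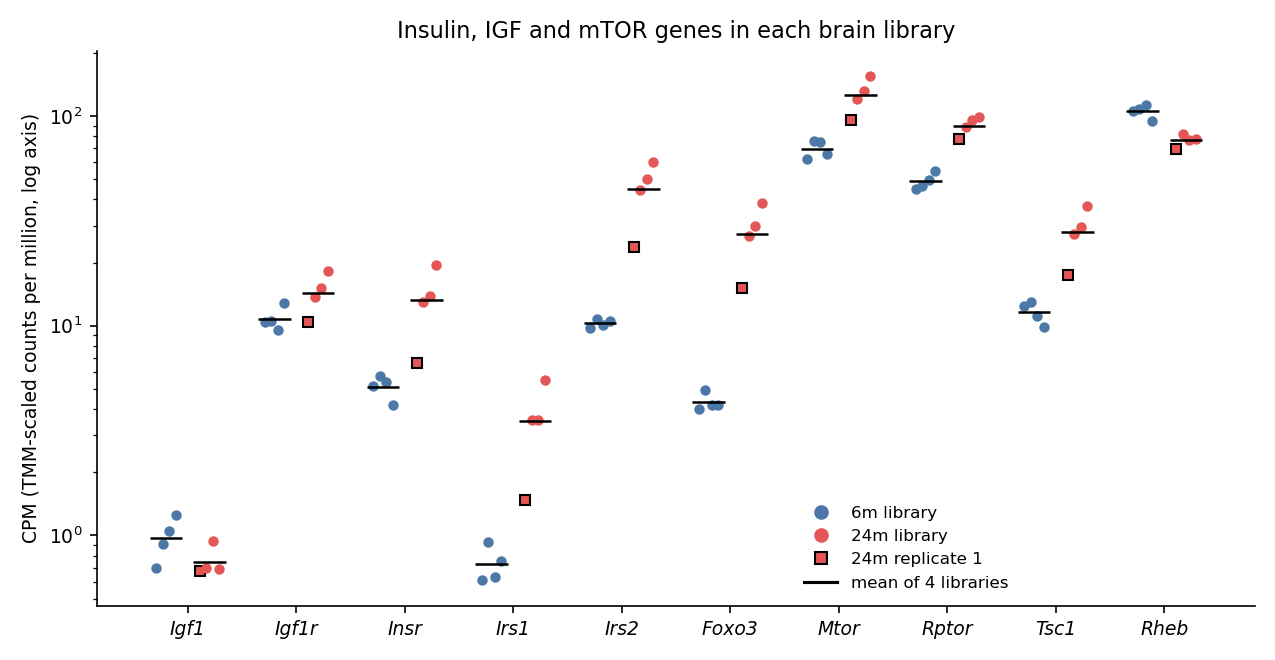
CPM of each gene in every library on a log axis, with 6m libraries in blue, 24m libraries in red, 24m replicate 1 as a square and a black line at the mean of 4 libraries. The ages separate for all genes but *Igf1* and *Igf1r*, with *Rheb* the one gene of the 8 whose 24m libraries lie below those at 6m.

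*Igf1* encodes the growth factor that acts mainly through IGF1R (gene ENSMUSG00000020053, GRCm39 chr10:87693642-87772904, plus strand). Its level was low, with 46 to 83 counts in the 6m libraries and 56 to 78 at 24m. It was 0.701, 0.905, 1.05 and 1.26 CPM in 6m replicates 1 to 4 and 0.676, 0.699, 0.937 and 0.688 CPM in 24m replicates 1 to 4. The ages overlapped through 24m replicate 3 alone, and the other 24m libraries lay just below the lowest 6m library, 6m replicate 1. The log2FC was -0.38 ± 0.22 (SE, n = 4 per age) with padj 0.148 in the edgeR fit, so no difference was called at this depth. With the length trends removed the gene was called lower, at -0.78 (exonic, padj 0.0127) and -1.06 (canonical, padj 0.00385).

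The receptor genes differed in their calls. *Igf1r*, the IGF1 receptor (ENSMUSG00000005533, chr7:67601518-67883416, plus strand), was at 10.4, 10.5, 9.57 and 12.8 CPM in the 6m replicates. The 24m replicates held 10.4, 13.7, 15.1 and 18.3 CPM, so 3 of them lay above every 6m library and 24m replicate 1 lay among the 6m libraries. The log2FC of *Igf1r* was 0.41 ± 0.17 with padj 0.0585, not called. This value turned sign with the length trends removed, to -0.24 (exonic, padj 0.165) and -0.38 (canonical, padj 0.0435), and reached 0.56 (padj 0.00248) without 24m replicate 1. *Igf1r* shares 1247 exonic bases with *Pgpep1l* on the opposite strand, and neither the study's methods nor the labels say whether reads were counted by strand.

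*Insr*, the insulin receptor (ENSMUSG00000005534, chr8:3172061-3329647, minus strand), held 5.17, 5.74, 5.36 and 4.18 CPM at 6m. At 24m it held 6.64, 13, 13.9 and 19.5 CPM, and the ages did not overlap although 24m replicate 1 stood close to the 6m libraries. *Insr* rose from 5.11 ± 0.667 to 13.2 ± 5.25 CPM (SD, n = 4), a log2FC of 1.37 ± 0.28 with padj 0.00207. With the exonic length trend removed it remained called at 0.83, and with the canonical length trend removed it stood at 0.56 (padj 0.00688), just short of the fold threshold.

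Within each library the ratio of *Igf1r* to *Insr*, as counts per kilobase of exons, does not depend on the scaling. It was 1.4, 1.27, 1.24 and 2.13 in the 6m replicates and 1.09, 0.736, 0.758 and 0.654 in the 24m replicates. *Igf1r* was thus the higher of the pair in every 6m library, and *Insr* was the higher in 3 of the 4 at 24m. The means were 1.51 ± 0.420 and 0.810 ± 0.193 (SD, n = 4), and the ages did not overlap. With canonical lengths the means were 1.63 and 0.875.

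The genes of the docking proteins showed some of the largest folds among the 10. *Irs1* (ENSMUSG00000055980, chr1:82210822-82269338, minus strand) was scarce at 6m, with 0.610, 0.934, 0.630 and 0.757 CPM from 38 to 66 counts. In the 24m replicates it was at 1.47, 3.55, 3.54 and 5.48 CPM, each above every 6m library. The log2FC of *Irs1* was 2.25 ± 0.36 with padj 0.000629, larger than that of 98.2% of the genes tested.

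*Irs2* (ENSMUSG00000038894, chr8:11034681-11059499, minus strand) was the more abundant docking protein gene. It was at 9.77, 10.8, 10.1 and 10.6 CPM in the 6m replicates, a spread of 4.35% of the mean (coefficient of variation, CV). At 24m it reached 23.8, 44.6, 49.9 and 60.5 CPM, with a CV of 34.6%. *Irs2* rose from 10.3 ± 0.448 to 44.7 ± 15.4 CPM, a log2FC of 2.12 ± 0.24 with padj 0.000116. Both docking protein genes remained called with the length trends removed, *Irs1* at 1.86 and 1.42 and *Irs2* at 1.87 and 1.37 (exonic and canonical). Per kilobase, *Irs1* stood at 0.0558 ± 0.00903 of *Irs2* at 6m and 0.0597 ± 0.00968 at 24m, a difference smaller than the spread between libraries.

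*Foxo3*, a transcription factor that AKT inhibits (ENSMUSG00000048756, chr10:42057837-42154007, minus strand), had the largest fold of the 10 genes. It was at 3.99, 4.95, 4.20 and 4.18 CPM in the 6m replicates and at 15.2, 26.8, 29.7 and 38.3 CPM in the 24m replicates. The lowest 24m library was thus well above the highest at 6m. The mean rose from 4.33 ± 0.424 to 27.5 ± 9.53 CPM, 6.34-fold in the fit, with a log2FC of 2.67 ± 0.25 and padj 5.02e-05. It remained called at 2.29 and 1.95 with the exonic and canonical length trends removed.

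*Mtor* and *Rptor*, the kinase and the defining subunit of mTORC1, rose by smaller folds from higher levels. *Mtor* (ENSMUSG00000028991, chr4:148533015-148642141, plus strand) held 62.6, 75.9, 75.0 and 65.7 CPM at 6m and 95.6, 121, 131 and 155 CPM at 24m. Its log2FC was 0.85 ± 0.14 with padj 0.000758. *Rptor* (ENSMUSG00000025583, chr11:119493731-119790402, plus strand) held 44.6, 46.1, 49.7 and 54.4 CPM at 6m and 77.8, 88.1, 95.2 and 99.0 CPM at 24m. Its log2FC was 0.89 ± 0.10 with padj 0.00012. In both genes every 24m library lay above every 6m library.

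The calls of *Mtor* and *Rptor* depended on whether a length trend was removed. With the exonic length trend removed *Mtor* stood at 0.43 (padj 0.00199) and *Rptor* at 0.39 (padj 0.00908), below the fold threshold. With the canonical length trend removed neither passed by padj, at 0.10 (padj 0.255) and 0.23 (padj 0.0804). The ratio of *Rptor* to *Mtor* per kilobase was 0.547 ± 0.0730 at 6m and 0.566 ± 0.0561 at 24m, and the libraries of the ages overlapped. With canonical lengths it was 0.916 and 0.948. A protein-coding gene on the same strand, *Gm69672*, shares 823 exonic bases with *Rptor*, and the opposite-strand *Rptoros* shares 84.

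*Tsc1* and *Rheb* sit on opposite sides of the switch below AKT and differed in opposite directions. *Tsc1*, which encodes hamartin, the scaffold of the complex that switches RHEB off (ENSMUSG00000026812, chr2:28531061-28581179, plus strand), held 12.4, 13, 11.1 and 9.87 CPM at 6m. At 24m it held 17.5, 27.4, 29.6 and 37.0 CPM, all above the 6m libraries. It rose by a log2FC of 1.26 ± 0.20 with padj 0.000662, remained called at 0.72 with the exonic length trend removed, and stood at 0.51 (padj 0.00189) with the canonical one removed.

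*Rheb* (ENSMUSG00000028945, chr5:25007821-25047622, minus strand) held 106, 108, 113 and 95.0 CPM at 6m. At 24m it held 69.3, 81.7, 76.7 and 78 CPM, so that every 24m library lay below every 6m library. The log2FC was -0.46 ± 0.085 with padj 0.00123, past the p threshold but not the fold threshold. Its values depended on which length was used, since its exons merged span 7963 bases and its canonical transcript 1784. With the exonic length trend removed *Rheb* was called lower at -0.74 (padj 3.72e-05), and with the canonical length trend removed it stood at -0.06 (padj 0.67). With library totals alone as scaling, which moved the median of all genes tested to 0.21, *Rheb* stood at -0.24 (padj 0.0689).

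The ratio of *Tsc1* to *Rheb* within libraries separated the ages. *Tsc1* to *Rheb*, per kilobase of exons, was 0.0647, 0.0663, 0.0543 and 0.0571 in the 6m replicates and 0.139, 0.184, 0.212 and 0.261 in the 24m replicates. With canonical lengths the means were 0.0249 at 6m and 0.0818 at 24m, and these ratios carry no correction for the length trend, under which *Tsc1* and *Rheb* stood closer (0.51 and -0.06, canonical). The ratio of *Tsc1* to *Tsc2*, its partner in the complex (tuberin), was 0.0464 ± 0.00674 at 6m and 0.109 ± 0.0331 at 24m, again without overlap, and 0.0564 and 0.133 with canonical lengths. *Tsc2* itself stood at 180 ± 5.44 CPM at 6m and 183 ± 7.20 at 24m (log2FC 0.03 ± 0.07, padj 0.731). With the length trends removed *Tsc2* stood at -0.37 (exonic, padj 0.00977) and was called lower at -0.63 (canonical, padj 0.0022). *Tsc2* shares exonic bases with *Pkd1* (700) and *Nthl1* (546) on the opposite strand.

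**Figure D2:**
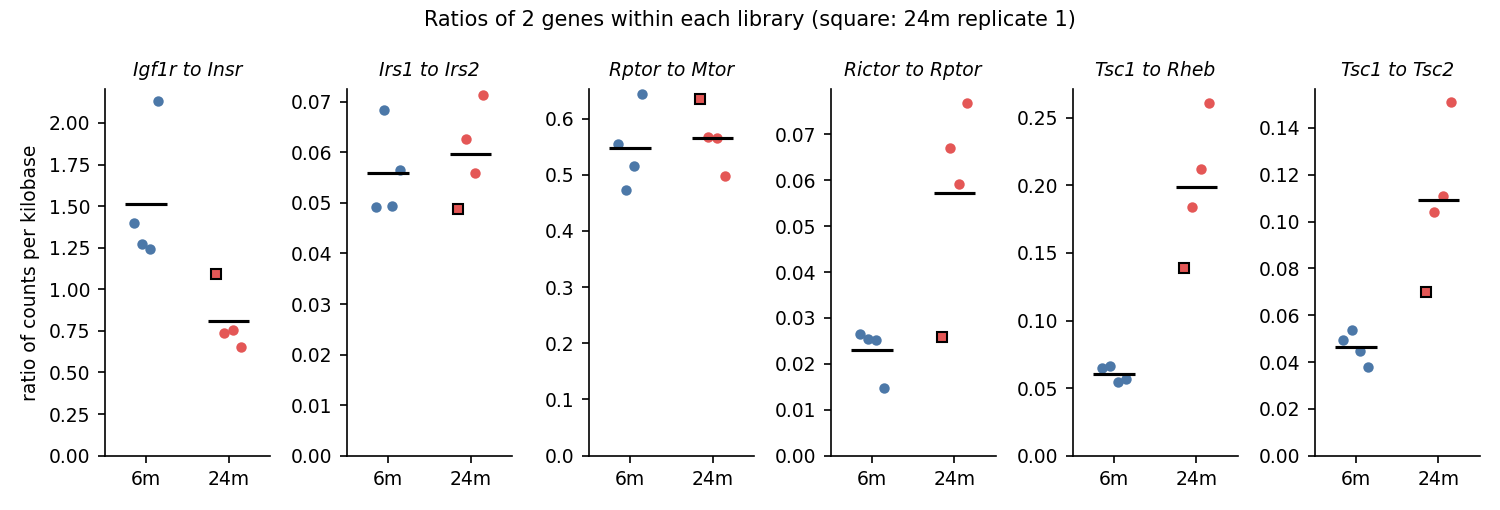
Ratio of counts per kilobase of exons between genes of a pair in each library, 6m in blue and 24m in red, with 24m replicate 1 as a square, a black line at the mean and each axis starting at 0. *Igf1r* to *Insr*, *Tsc1* to *Rheb* and *Tsc1* to *Tsc2* separate the ages, whereas *Irs1* to *Irs2* and *Rptor* to *Mtor* overlap. *Rictor* to *Rptor* overlaps through 24m replicate 1 alone.

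The 4 aged libraries were ordered alike across most of the genes. In 8 of the 10 genes, 24m replicate 1 was the lowest and 24m replicate 4 the highest of the 24m libraries, and this held in all 7 genes called higher. The same order was found in 73.5% of all genes called higher and in 31.2% of all genes tested. At 24m the CV reached 46.7% in *Irs1*, whose CV at 6m was 20.3%. *Rheb* was steady at both ages, with a CV of 7.10% at 6m and 6.82% at 24m. Without 24m replicate 1 the log2FC was 1.61 for *Insr*, 2.53 for *Irs1*, 2.35 for *Irs2*, 2.89 for *Foxo3*, 0.98 for *Mtor*, 0.97 for *Rptor* and 1.45 for *Tsc1*.

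**Figure D3:**
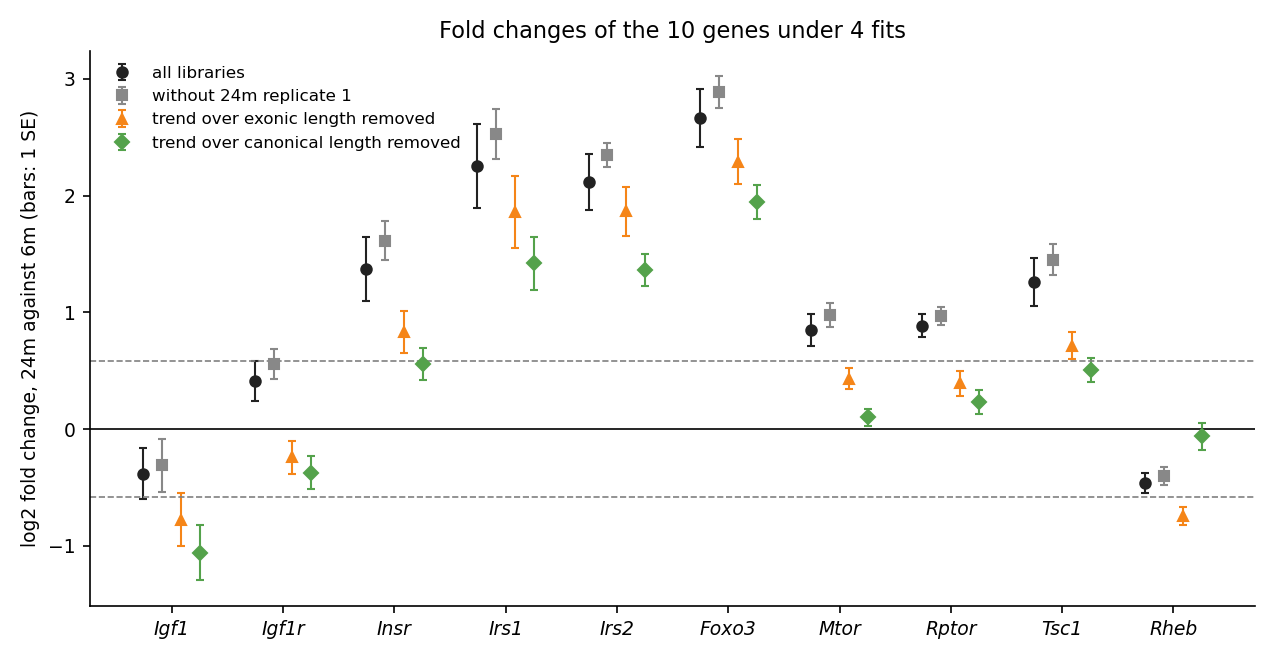
Log2 fold change of each gene, 24m against 6m, with bars of 1 SE, from all 8 libraries, without 24m replicate 1, and with the trend over exonic or canonical length removed; dashed lines mark the fold threshold of 0.58. *Irs1*, *Irs2* and *Foxo3* stay above 1 in all 4 fits, *Mtor* and *Rptor* drop below the threshold with either length trend removed, and *Igf1r* changes sign.

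Levels were ranked between genes per kilobase of exons. At 6m *Rheb* led with 13.2 ± 0.940 CPM per kilobase, followed by *Mtor* (6.65 ± 0.634), *Rptor* (3.62 ± 0.323), *Irs2* (1.4 ± 0.0608) and *Tsc1* (0.802 ± 0.0975). *Igf1r*, *Foxo3* and *Insr* came next at 0.546, 0.469 and 0.371, and *Igf1* and *Irs1* were lowest at 0.0954 and 0.0784. At 6m the neighbours in this order did not overlap across libraries, except *Igf1r* with *Foxo3* and *Igf1* with *Irs1*. Within single libraries the order of each of these pairs held in 3 of the 4.

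At 24m *Mtor* was first at 12 ± 2.35 CPM per kilobase and *Rheb* next at 9.59 ± 0.654, overlapping. *Rptor* (6.68 ± 0.689), *Irs2* (6.07 ± 2.10), *Foxo3* (2.98 ± 1.03), *Tsc1* (1.92 ± 0.557), *Insr* (0.961 ± 0.381), *Igf1r* (0.726 ± 0.165) and *Irs1* (0.375 ± 0.175) followed, each overlapping the next. *Igf1* was last at 0.0733 ± 0.0122 and stood apart from *Irs1*, as *Rheb* did from *Rptor*. Within single libraries the order was firmer, each gene standing above the next in all 4 libraries at 24m. The exceptions were *Rptor* over *Irs2* and *Insr* over *Igf1r*, which held in 3 of the 4. With canonical lengths *Rheb* led at both ages, at 59.1 and 42.8 CPM per kilobase, so the place of *Rheb* against *Mtor* at 24m rests on the length chosen. So does that of *Irs2* and *Tsc1* at 6m, which with canonical lengths stood at 1.4 ± 0.0608 and 1.47 ± 0.179, overlapping.

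**Figure D4:**
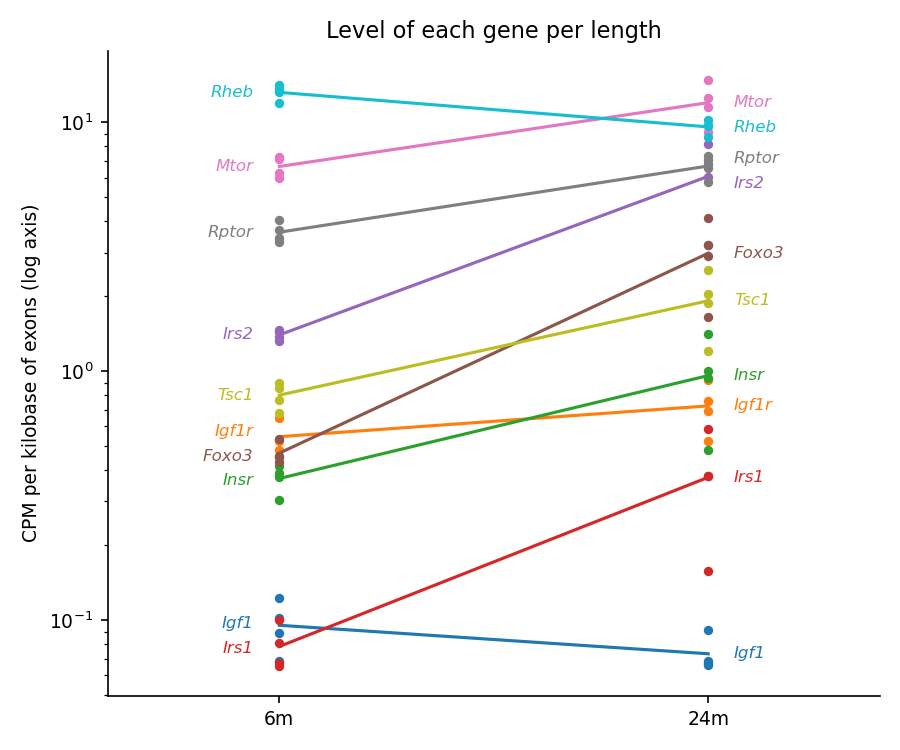
CPM per kilobase of exons on a log axis for the 10 genes at each age, with a point for each library and a line joining the means. *Foxo3*, *Irs2* and *Irs1* have the steepest lines, *Irs1* passes *Igf1*, and *Rheb* and *Mtor* change places.

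Sequences of 30 bases are shown next for let-7 seed matches, because let-7 is a microRNA family known to repress genes of the insulin and IGF pathway and because genes called higher at 24m were found both with and without a match. The mature sequence (RefSeq) is given with its seed, bases 2 to 8, in capitals, and each 30-base stretch of a 3′ UTR in GRCm39 is written on the strand of the gene with the seed match CTACCTC in capitals.
mmu-let-7a-5p: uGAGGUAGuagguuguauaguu
*Igf1r*, chr7:67878858-67878887: ttttcaaacatttatCTACCTCactcttgt
*Igf1r*, chr7:67882964-67882993: tttgccagagttcatCTACCTCtgggattt
*Insr*, chr8:3203191-3203220: tcttctcagtacagtCTACCTCagtgtctt
*Irs2*, chr8:11036521-11036550: aaaactaccacagtcCTACCTCagttcagg
*Tsc1*, chr2:28577827-28577856: tacccctctgccccaCTACCTCttatttat

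The match was searched on the transcript strand of the canonical 3′ UTR. Matches are given for 4 of the genes, and the list is not complete for the 10. *Igf1r* held 2, and *Insr*, *Irs2* and *Tsc1* held 1 each, where 11% of 16273 3′ UTRs of the genes tested held any, at 0.0721 matches per kilobase over all of them. These shares are not like for like, since the 3′ UTRs of *Igf1r*, *Insr*, *Tsc1* and *Irs2* lie at percentiles 98.7, 94.0, 90.3 and 72.9 of length. *Insr*, *Irs2* and *Tsc1* were called higher at 24m, and the ages overlapped for *Igf1r*. *Irs1*, *Foxo3*, *Mtor* and *Rptor*, also called higher, held no match. A letter match is a description, and small RNAs were not analysed here.

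The FOXO binding motif TGTTTAC was searched on both strands from 250 bases before to 50 bases after the start of each canonical transcript. It was in the window of none of the 10 genes, although *Irs2* and *Insr* are known FOXO targets, and in 2.81% of the windows of 16677 genes tested. This says only that these letters are not in these windows.

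The wider pathway was described with 14 lists of genes by role, which held 147 different genes, 146 of them tested. Of these 57 (39.0%) were called higher at 24m and 17 (11.6%) lower, with a median log2FC of 0.21. Among the 136 that are not among the 10, 50 rose and 17 fell past the thresholds (median 0.18). With the exonic length trend removed the counts over the 146 were 49 and 21 with a median of 0.17, and with the canonical length trend removed 39 and 18 with a median of 0.10. The lists were chosen with results of these data known, so their counts describe and do not test the pathway. Beside each count stand those with the exonic and then the canonical length trend removed, and each is read against the share of all genes tested that the same fit called, 25.3% higher and 18.3% lower, 21.4% and 17.2% with the exonic trend removed, and 18.1% and 14.4% with the canonical one removed.

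Of 3 ligand genes tested 1 was called higher and none lower, and with either length trend removed *Igf1* was called lower. *Ins2*, an insulin gene with 11 to 53 counts a library, stood at -0.98 ± 0.41 (padj 0.0603) and was called lower without 24m replicate 1, at -1.55 (padj 0.00113). *Igf2*, the fetal growth factor that in the adult brain comes largely from the choroid plexus and meninges, was the one ligand gene called higher, at 4.97 ± 1.00 CPM at 6m and 11.9 ± 2.78 at 24m (log2FC 1.26 ± 0.21, padj 0.000684), and at 1.13 and 1.04 with the exonic and canonical length trends removed. *Igf2* shares 3599 exonic bases with *Gm49394* on the same strand, which is also in the table. The summed level of 7 choroid plexus markers was 1781 to 3207 CPM at 6m and 826 to 2261 at 24m, and that of 7 meningeal markers 73.0 to 91.9 and 68.3 to 87.9 CPM, and their part in *Igf2* was not tested. Of the choroid plexus markers 3 were called higher and none lower, with log2FC of -0.85 to 1.53, so the markers did not all follow the sum, and of the meningeal markers none was called. With either length trend removed 3 choroid plexus markers were called higher and 1 lower. Of the meningeal markers 1 (exonic) or 2 (canonical) were then called lower. Of 12 genes of IGF-binding proteins and their proteases, 2 rose and 3 fell, the list's median log2FC being 0.03. With either length trend removed 2 were called higher and 1 lower.

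*Igfbp5*, which encodes a binding protein for IGFs, rose from 4.43 ± 0.855 to 23.7 ± 7.59 CPM (log2FC 2.42 ± 0.26, padj 8.07e-05). *Igfbp7*, a vessel-associated member of the family, fell from 36.6 ± 4.91 to 18.1 ± 2.98 CPM (log2FC -1.02 ± 0.14, padj 0.000293), and *Igfbp2*, an abundant binding protein of glia and choroid plexus, fell from 194 ± 26.4 to 107 ± 34.4 CPM (log2FC -0.86 ± 0.21, padj 0.00506). The sum of 8 endothelial markers was 76.3 to 111 CPM at 6m and 45.9 to 70.7 at 24m, without overlap. Of the 8 markers 2 were called higher and 2 lower (log2FC of -1.26 to 1.25), 25.0% each beside 25.3% and 18.3% of all genes tested. With the exonic length trend removed 3 were called higher and 2 lower, and with the canonical one removed none was called. The part of endothelial cells in *Igfbp7* was not tested. *Igfbp7* shares 747 exonic bases with *Polr2b* on the opposite strand. *Igfbp5* (2.30 exonic, 1.78 canonical) and *Igfbp7* (-1.09 and -1.56) kept their calls with the length trends removed, and *Igfbp2* lost its call, at -0.41 and -0.30.

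Beside *Insr*, *Igf2r*, the receptor that takes IGF2 to the lysosome, was called higher (log2FC 0.99 ± 0.20, padj 0.00193). No receptor gene was called once the canonical length trend was removed, *Igf2r* standing at 0.21. With the exonic one removed *Insr* and *Igf2r* (0.61) kept their calls. Of 14 adaptor genes 8 were called higher and none lower, with a median of 1.03. Removing either length trend left 7 higher and 1 lower, with medians of 0.60 and 0.43. *Irs4*, a docking protein gene of the hypothalamus, had the largest log2FC in that list at 3.01 ± 0.41 (padj 0.000263), from 0.351, 0.368, 0.498 and 0.454 CPM at 6m to 2.30, 2.38, 2.17 and 6.60 CPM at 24m. It stood at 2.86 and 2.33 with the length trends removed.

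Of 6 PI3 kinase subunit genes 4 were called higher, led by *Pik3r3*, a regulatory subunit (log2FC 2.29 ± 0.28, padj 0.000178), which shares 1289 exonic bases with *Gm49337* on its strand. Of 8 genes of phosphatases that reverse PI3 kinase or AKT action 6 were called higher, the largest fold being that of *Phlpp2*, which dephosphorylates AKT (log2FC 2.30 ± 0.30, padj 0.000216). *Phlpp2* was at 2.99, 4.70, 4.01 and 2.66 CPM at 6m and 9.79, 17.1, 17.3 and 26.5 CPM at 24m, every 24m library above every 6m library. Removing the exonic length trend left 3 of the 6 and 4 of the 8 called higher, and removing the canonical one 2 of the 6 and 3 of the 8, with none called lower. *Pik3r3* (2.20 and 1.74) and *Phlpp2* (1.97 and 1.53) kept their calls.

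*Akt1* (log2FC -0.07 ± 0.11, padj 0.599) and *Akt2* (0.12 ± 0.13, padj 0.447) were not called, and *Akt1* shares 3340 exonic bases with *Siva1* on the opposite strand. Of the 9 genes of AKT kinases and substrates 4 were called higher, the largest fold being that of *Tbc1d4*, an AKT substrate in glucose transport (1.5 ± 0.24, padj 0.000686). The count was 2 higher and none lower with the exonic length trend removed and 2 higher and 1 lower with the canonical one removed, *Tbc1d4* standing at 1.08 and 0.77.

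*Foxo3* was the one FOXO gene of 4 that was called, and with either length trend removed 1 was called higher and 1 lower. *Foxo1* was at 18.7 ± 2.52 CPM at 6m and 14.6 ± 3.03 at 24m (log2FC -0.35 ± 0.16, padj 0.0801), and with the length trends removed it was called lower, at -0.73 (exonic, padj 0.00151) and -1.12 (canonical, padj 0.000112). Of 16 genes known as FOXO targets, 10 were called higher and none lower, with a median log2FC of 0.85. The list includes *Irs2* and *Insr*. With the length trends removed the median was 0.87 (exonic, 10 higher and 1 lower) and 0.59 (canonical, 8 higher and 1 lower).

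Among 11 genes of mTOR complex subunits 4 were called higher and none lower, and without 24m replicate 1 the counts were 5 higher and 1 lower. The balance of the list turned with the length trends removed, to 2 higher and 3 lower (exonic) and 1 higher and 2 lower (canonical). *Rictor*, which defines mTORC2 as raptor defines mTORC1, had the largest fold, at 1.49, 1.49, 1.58 and 1.01 CPM in the 6m replicates and 2.55, 7.45, 7.10 and 9.60 CPM in the 24m replicates (log2FC 2.26 ± 0.36, padj 0.000602). Per kilobase, *Rictor* to *Rptor* was 0.0265, 0.0255, 0.0251 and 0.0148 at 6m and 0.0259, 0.0670, 0.0591 and 0.0768 at 24m, so 3 of the 24m libraries stood above all of the 6m libraries and 24m replicate 1 lay among the 6m libraries. With canonical lengths the means were 0.0205 and 0.0511. *Mlst8*, a subunit shared by both complexes, was called higher at 0.64 ± 0.09 (padj 0.000262) and stood at 0.67 and 0.39 with the exonic and canonical length trends removed. *Mlst8* shares 1054 exonic bases with *Bricd5* on the opposite strand. *Rictor* was the one subunit gene still called higher with the canonical length trend removed, at 1.43, and it stood at 1.62 with the exonic one removed.

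Of the 5 genes of the TSC complex and RHEB, *Tsc1* was called higher and 2 were called lower. The counts were 1 higher and 3 lower with the exonic length trend removed and 0 higher and 1 lower with the canonical one removed. *Rhebl1*, a close relative of *Rheb*, fell from 9.58 ± 0.888 to 5.36 ± 1.05 CPM (log2FC -0.84 ± 0.15, padj 0.00121), and it shares 546 exonic bases with *Dhh* on the same strand. It stood at -0.73 with the exonic length trend removed and at -0.25, below the fold threshold, with the canonical one removed.

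Of 31 amino acid sensing genes 8 (25.8%) rose and 6 (19.4%) fell past the thresholds, shares close to those of all genes tested, and the median was 0.03. The counts were 8 higher and 3 lower without the exonic length trend and 8 and 4 without the canonical one, and without 24m replicate 4 the count that fell was 3. *Castor2*, of the arginine sensor family, rose from 4.00 ± 0.725 to 23.9 ± 7.01 CPM (log2FC 2.58 ± 0.23, padj 4.32e-05), and *Lamtor2*, a subunit of the lysosomal scaffold of mTORC1, fell from 199 ± 20.5 to 85.4 ± 17.5 CPM (log2FC -1.22 ± 0.14, padj 0.000136). The exonic length of *Lamtor2* is 1358 bases and that of *Castor2* 7948, and with the length trends removed *Lamtor2* stood at -0.57 and -0.36, short of the fold threshold, and *Castor2* at 2.28 and 1.84. Of 11 AMPK and LKB1 genes 4 were called higher and 2 lower, among them *Prkaa2*, a catalytic AMPK subunit (2.22 ± 0.37, padj 0.000734), and *Stk11*, which encodes LKB1 (-0.81 ± 0.12, padj 0.000369). Both kept their calls with the length trends removed, *Prkaa2* at 1.90 and 1.45 and *Stk11* at -0.84 and -0.72, and the list held 4 higher and 2 lower (exonic) or 4 and 1 (canonical).

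Of 16 genes of mTORC1 outputs 6 (37.5%) were called higher and 4 (25.0%) lower. With the exonic length trend removed 5 were called in each direction, and with the canonical one removed 2 were called higher and 4 lower. The 3 genes of the 4E-BP family, translation repressors that mTORC1 inactivates, differed. *Eif4ebp2*, the main 4E-BP of brain, rose (log2FC 1.51 ± 0.16, padj 8.33e-05), whereas *Eif4ebp1* (-0.59 ± 0.14, padj 0.00447) and *Eif4ebp3* (-1.53 ± 0.18, padj 0.000146) fell. *Eif4ebp3* shares 501 exonic bases with *Maskbp3* on its strand. *Rps6kb1*, which encodes the S6 kinase, was called higher at 0.66 ± 0.19 (padj 0.011) and stood at 0.07 and 0.10 with the exonic and canonical length trends removed. It shares 2006 exonic bases with *Rnft1* on the opposite strand. With the length trends removed *Eif4ebp2* (1.37 exonic, 0.89 canonical) and *Eif4ebp3* (-0.90 and -0.70) kept their calls, and *Eif4ebp1* stood at -0.92 and -0.29.

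**Figure D5:**
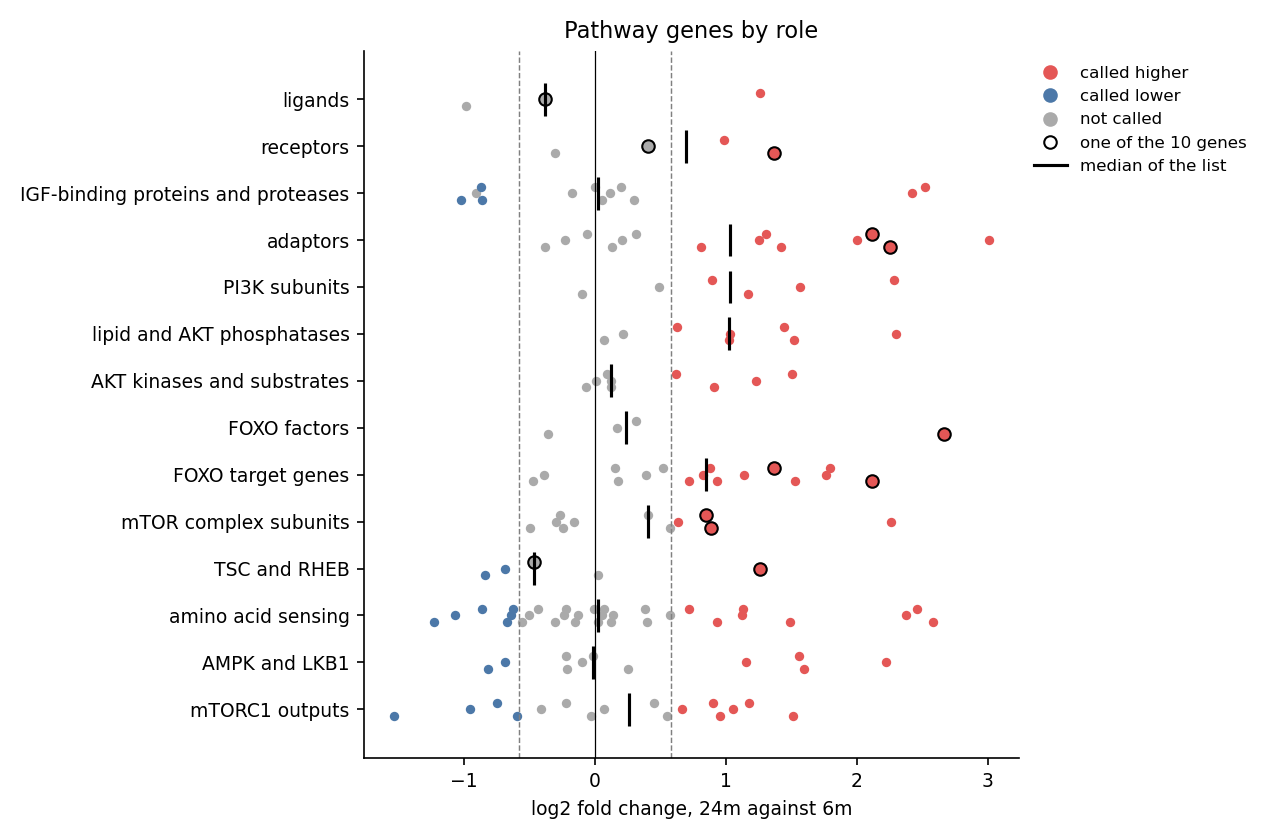
Log2 fold change of each tested gene in 14 role lists, red for genes called higher at 24m, blue for those called lower and grey for those not called, with the 10 genes outlined, a bar at the median of each list and dashed lines at the fold threshold of 0.58. Calls lie on both sides in the lists of IGF-binding proteins, TSC and RHEB, amino acid sensing, AMPK and mTORC1 outputs, and on the higher side alone in the other 9 lists.

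The label of brain tissue was checked with marker genes. Summed levels were 5007 to 5468 CPM at 6m and 5699 to 6026 at 24m for 11 neuronal markers (4 called higher and 1 lower), 2961 to 3895 and 2930 to 3900 for 10 astrocyte markers (6 called higher and 1 lower), 3336 to 4192 and 3581 to 4225 for 8 oligodendrocyte markers (1 higher and none lower), and 758 to 835 and 706 to 1059 for 15 microglial markers (3 higher and none lower). The median log2FC of the astrocyte markers was 0.98, and 0.73 and 0.39 with the exonic and canonical length trends removed, so single astrocyte markers were higher at 24m while their sum overlapped between ages. The 4 markers of oligodendrocyte precursors summed to 50.6 to 61.6 CPM at 6m and 57.3 to 67.3 at 24m, with 2 called higher and 1 lower and a median log2FC of 1.14. The 7 markers of pericytes and smooth muscle summed to 53.1 to 75.6 CPM at 6m and 41.3 to 54.9 at 24m, with 2 called higher and 3 lower. Of all genes tested 25.3% were called higher and 18.3% lower. With the exonic length trend removed only the counts of precursors (2 higher, 0 lower) and pericytes (2 and 2) changed. With the canonical one removed they were 5 and 2 for neurons, 4 and 1 for astrocytes and 1 and 0 for oligodendrocytes. Microglia then had 6 and 0, precursors 2 and 0, and pericytes 1 and 3. The 6 liver and pancreas genes summed to 4.34 to 7.27 CPM over all libraries, with *Ins1* at 0. The neuronal, endothelial and liver and pancreas sums did not overlap between ages, with p = 0.0286 each in a two-sided exact permutation test, the smallest that 4 against 4 libraries allow, and 0.105 after adjustment over the 11 sums. The part of cell composition in the values of the 10 genes was not tested.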

How the data were processed

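Brain RNA of 4 male mice of 6 months and 4 of 24 months was measured, 1 library each. Per the study's methods and the labels, polyadenylated RNA was made into directional libraries and sequenced in pairs. The authors trimmed reads with Trim Galore 0.4.11, aligned them to GRCm39 with HISAT2 2.1.0 and counted them per Ensembl gene with featureCounts, and they deposited whole-number counts per gene and library, not normalized. Strand setting and treatment of multimapping reads were not stated in the methods or the labels.

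The members and lists were chosen with earlier results of these data known. Of 22430 genes, 22281 matched the GENCODE annotation used here. Testing required over 5 counts in 4 or more libraries and used edgeR 4.0.16 (quasi-likelihood, TMM, age as the only term, R 4.3.3), with Benjamini-Hochberg adjustment over 16730 genes. SE was derived from the log2FC and the F statistic. Length and GC trends were removed with an offset, a smooth curve (span 0.3) over log length or GC content in each library. Alternatives were DESeq2 1.42.0, limma 3.58.1 with voom, other scalings, filters and thresholds, thinning, a block and leaving out each library. Comparison of replicate counts within each age by chi-square gave 8.18 to 417 per degree of freedom, so no library was a repeat of another of its age. Library totals of 63460940 to 103462414 counts leave counting error as a limit mainly for *Igf1* and *Irs1*. Named outside the 10 were, in each list, the genes of largest and smallest log2FC with at least 1 CPM if called, and a fixed set of partners whatever their values, of which some are not reported here. *Pgpep1l*, *Gm69672* and other overlapping genes, and *Ins1* and *Ins2*, were named after their values were seen. The scripts were tested on simulated data.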

Additional observations from a re-analysis of the deposited data

Results flagged for a closer look

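Among 32 groups of 4 values tested by Dixon's criterion, 2 held a library far from the other 3, and chance alone flags about 1 group in 20. *Igf1* was at 0.937 CPM in 24m replicate 3, where the other 24m libraries held 0.676 to 0.699. The ratio of *Rictor* to *Rptor* per kilobase was 0.0148 in 6m replicate 4, where the other 6m libraries held 0.0251 to 0.0265.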

How the results depend on the processing

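Of 26 alternatives (25 for *Igf1*, which was not tested when at least 1 CPM in 4 libraries was required), 9 of the 10 genes kept their direction in each that was run. *Irs1*, *Irs2* and *Foxo3* kept their call in all 26, with log2FC of 1.42 to 2.53, 1.37 to 2.36 and 1.95 to 2.90. *Igf1r* changed sign to -0.242 with the exonic length trend removed, -0.244 with length and GC trends removed, -0.221 with the replicate block and the length trend removed, -0.252 with the length trend removed and without 24m replicate 1, and -0.375 with the canonical length trend removed. The last 2 alternatives were added after the data were seen. The count called higher was 7 in each fit without 1 library (range 7 to 7, and 0 to 0 called lower), 5 with the exonic length trend removed and 3 with the canonical one removed. The count called lower was 2 with the exonic length, GC, or both trends removed, with the replicate block and length trend removed, and with the length trend removed and without 24m replicate 1 (*Igf1* and *Rheb*). It was 1 with the canonical length trend removed and with DESeq2 on quantile-normalized counts (*Igf1*), and 1 with no fold threshold (*Rheb*). A log2 threshold of 1 left 5 called higher, without *Mtor* and *Rptor*, and library totals alone added *Igf1r* (0.644). The cause was not tested. The replicate block alone gave 7 higher and 0 lower, with 4112 higher and 3130 lower over all genes. DESeq2, limma with voom and the replicate block each called 1 of 3 ligand genes lower, where the edgeR fit called none. Same-numbered libraries correlated by 0.239, 0.130, 0.048 and -0.303, so the numbers were not taken as pairs. Over all genes, 4237 were called higher and 3058 lower, 5449 and 1746 with library totals alone, 2542 and 950 at a log2 threshold of 1, and 4999 were called lower with no fold threshold. With canonical lengths 15 of 20 levels per kilobase and 5 of 12 mean ratios moved by more than 1 SD. Counts limit precision most for *Igf1* and, at 6m, *Irs1*.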
